A study of Mus musculus with 2 samples.

Results

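Small nucleolar RNAs (snoRNAs) were described in gastrocnemius, the large calf muscle. The entries were chosen by the deposited TPM, a level corrected for length and scaled to a fixed total per library: a gene was taken as detected when the annotation gave its transcript the type snoRNA and its TPM was at least 1 in both libraries. By this rule 80 of 1507 annotated snoRNA genes were detected, among 55536 genes of all types. The muscle came from female mice at 36 days of age, of the strain B6CASTF1/J, which crosses a laboratory strain with a castaneus strain. Total RNA was sequenced in 2 libraries, replicate 1 and replicate 2, each from 300 ng with synthetic spike-in RNAs added, and the libraries form the only group. The mice carried no treatment or engineered allele according to the labels. The labels number the libraries as biological replicates without stating whether each is a different mouse, and their spread may be partly technical. Because detection was decided on TPM, all levels here are a description with no test.

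snoRNAs are short noncoding RNAs that work in the nucleolus as guides for chemical modification of other RNAs. C/D box snoRNAs direct 2'-O-methylation of ribosomal RNA by fibrillarin, and H/ACA box snoRNAs direct pseudouridylation by dyskerin. Most mammalian snoRNAs are cut out of introns of host genes, many of which encode ribosomal proteins or translation factors. A few, such as U3, U8, U17 and U22, act in cleavage and folding of the ribosomal RNA precursor, and the related scaRNAs modify spliceosomal RNAs in Cajal bodies.

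The sequences of 9 detected entries are shown because the levels below turn on them. They are GENCODE M21 transcripts on mm10, 5' to 3'. Capitals mark the first TGATGA (C box letters) and the last CTGA (D box letters) in the first 4 entries and in Gm25835, and the last ACA in the other 4. Snord22 holds no TGATGA.
Rnu3b1: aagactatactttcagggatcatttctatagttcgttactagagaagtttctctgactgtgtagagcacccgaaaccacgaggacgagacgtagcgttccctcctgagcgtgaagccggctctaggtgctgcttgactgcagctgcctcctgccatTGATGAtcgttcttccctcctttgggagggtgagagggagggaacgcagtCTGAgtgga
Snord118: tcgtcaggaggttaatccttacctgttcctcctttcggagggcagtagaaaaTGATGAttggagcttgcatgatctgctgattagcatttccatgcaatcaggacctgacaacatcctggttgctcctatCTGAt
Snord22: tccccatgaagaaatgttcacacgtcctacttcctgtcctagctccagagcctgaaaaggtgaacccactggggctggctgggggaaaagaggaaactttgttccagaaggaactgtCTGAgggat
Snord15b: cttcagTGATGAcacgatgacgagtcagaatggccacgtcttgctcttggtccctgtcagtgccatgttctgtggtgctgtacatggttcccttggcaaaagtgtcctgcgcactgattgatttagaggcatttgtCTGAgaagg
Snora73a: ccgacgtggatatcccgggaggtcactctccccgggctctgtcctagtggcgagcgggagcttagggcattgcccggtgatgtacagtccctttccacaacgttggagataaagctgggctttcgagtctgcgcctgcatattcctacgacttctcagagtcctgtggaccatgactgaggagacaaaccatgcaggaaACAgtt
Snora73b: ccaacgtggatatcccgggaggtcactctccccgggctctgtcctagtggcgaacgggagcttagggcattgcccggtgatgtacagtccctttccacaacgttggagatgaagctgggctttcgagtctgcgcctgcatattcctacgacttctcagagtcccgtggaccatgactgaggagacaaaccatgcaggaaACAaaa
Gm22988: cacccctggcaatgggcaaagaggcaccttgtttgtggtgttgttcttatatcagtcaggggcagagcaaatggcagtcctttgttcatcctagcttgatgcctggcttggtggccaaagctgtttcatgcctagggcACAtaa
Gm25835: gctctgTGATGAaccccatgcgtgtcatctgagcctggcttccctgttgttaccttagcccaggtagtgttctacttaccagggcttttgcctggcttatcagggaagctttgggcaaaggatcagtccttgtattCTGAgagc
Gm26447: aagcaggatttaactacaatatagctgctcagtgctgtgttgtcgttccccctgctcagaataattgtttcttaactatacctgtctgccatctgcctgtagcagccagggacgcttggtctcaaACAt

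Rnu3b1, a copy of U3, lies at chr11:87443237-87443451 (plus strand) in an intron of Tex14. Snord118, the U8 RNA, lies at chr11:69073427-69073561 (plus strand) outside any gene on its strand. Snord22, the U22 RNA, lies at chr19:8725866-8725991 (plus strand) in Snhg1, and Snord15b at chr7:99479563-99479707 (minus strand) in Rps3. The U17 copies lie in Snhg3, Snora73a at chr4:132352775-132352979 (minus strand) and Snora73b at chr4:132352322-132352526 (minus strand). Gm22988 at chr11:69669635-69669778 (minus strand) and Gm25835 at chr11:69668852-69668995 (minus strand) lie in the same host, Eif4a1. Gm26447 lies at chr16:23111301-23111429 (plus strand) in Eif4a2.

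Length set which snoRNAs could be measured at all. The deposited effective length, the number of start positions a read can take, equalled the annotated length minus 99 bases for every snoRNA gene of at least 100 bases. It was 0 for the 458 shorter ones, and those held 0 counts in both libraries and in both kinds of deposited table. Of the 98 genes with a Snord symbol, 87 were under 100 bases. Every listed entry found for 3 well known groups was among them, namely the 4 snoRNAs of Rpl13a introns, 4 entries of Gas5 introns (Snord47, Snord78 and 2 of Snord80, which are 3 of the 10 listed symbols) and 19 entries of an imprinted cluster (Snord64, Snord107 and 17 with Snord116 symbols). Their value of 0 therefore says nothing about their level in muscle. Of the 1049 genes of at least 100 bases, 80 (7.63%) were detected, 929 had 0 counts in both libraries, and the other 40 had at most 3 counts in a library. The detected share was 3.87% of genes from 120 to 129 bases, 6.78% from 130 to 139, 17.3% from 140 to 159, 38.5% from 160 to 199 and 51.6% from 200 to 325 bases. The last range held 16 detected of 31 genes. Of these 16, 8 were Rnu3b entries, copies of U3 that describe only 4 loci, so its share depends on double annotation. No gene from 100 to 119 bases was detected, out of 130.

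**Figure D1:**
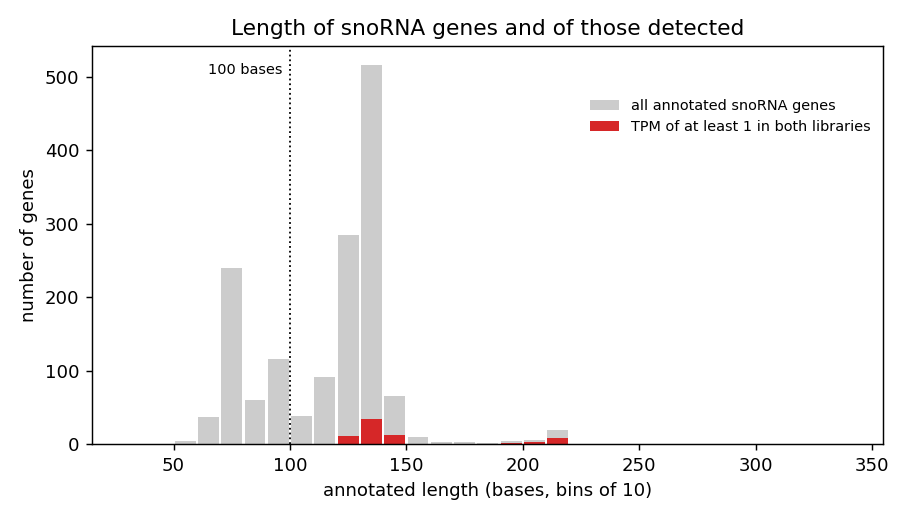
Number of snoRNA genes (vertical axis) by annotated length in bases (horizontal axis, bins of 10). Grey bars are all 1507 annotated genes and red bars the 80 detected ones; no red stands left of the dotted line at 100 bases, where the effective length is 0.

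By symbol, the 80 detected entries were 5 Snord, 24 Snora, 1 Scarna and 50 others. The others comprised 40 entries with provisional Gm symbols, 9 U3 entries (Rnu3) and Mir1949, which the annotation types as a snoRNA although its symbol is that of a miRNA. Among genes of at least 100 bases, 5 of 11 Snord, 24 of 42 Snora and 40 of 982 Gm genes were detected. The 6 Snord genes not detected were Snord8, Snord13, Snord23, Snord67, Snord89 and Snord90, each 104 to 111 bases long, with at most 1 count. The 18 Snora genes not detected had at most 2.58 counts in a library.

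The detected entries together held 13248 expected counts in replicate 1 and 14294 in replicate 2. An expected count is the estimated number of reads assigned to a gene. These were 0.0351% and 0.0352% of all counts (37735684 and 40656175). Their TPM summed to 5051 and 5057, a mean of 5054 ± 4.64 (SD, n = 2). The summed TPM thus differed little between the libraries, although an SD from 2 values is itself uncertain. This depended on the scaling. Among the 57 entries averaging at least 10 counts, the median log2 ratio, replicate 2 over replicate 1, was -0.04 in TPM. It was 0.36 when counts were scaled by the spike-in RNAs. Median TPM was 17.9 in replicate 1 and 19.2 in replicate 2 over all entries. It was 90.7 and 74.0 for Snord, 7.0 and 6.79 for Snora, and 18.7 and 23.1 for the other symbols. Single entries ran from 1.02 to 453 TPM in replicate 1 and from 1.68 to 496 TPM in replicate 2. The 10 highest entries were the same in both libraries and held 54.4% and 53.5% of the summed TPM. Across the 80 entries, log2 TPM in the libraries had a Pearson r of 0.957 and TPM a Spearman rho of 0.952, a description across genes that share library and length effects.

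**Figure D2:**
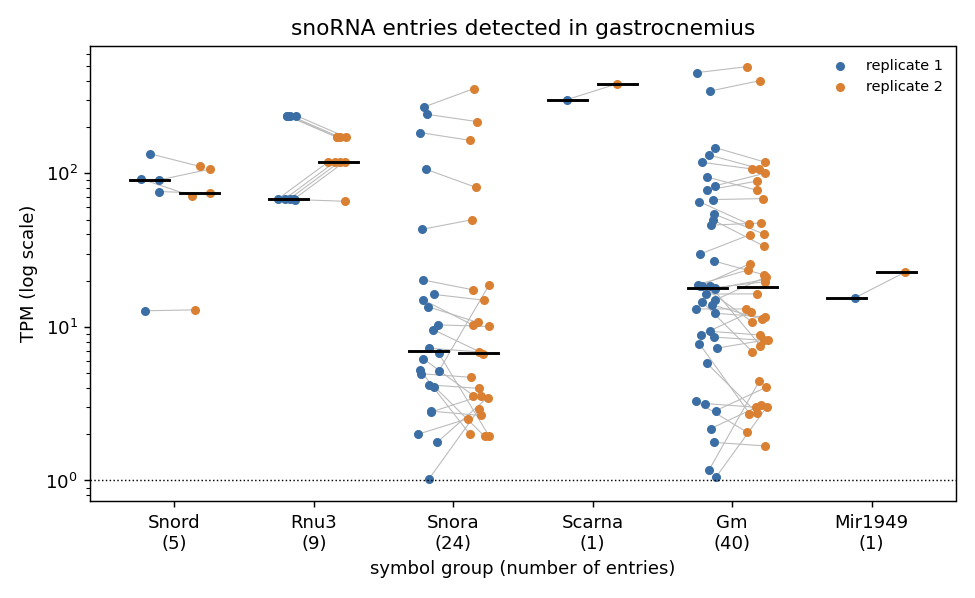
TPM of each detected entry (log scale) by symbol group, in replicate 1 (blue) and replicate 2 (orange), with lines joining an entry and black bars at the group medians. The dotted line is the threshold of 1 TPM; most Snora entries lie under 20 TPM while 3 exceed 100 TPM in both libraries, and the 8 Rnu3b points fall into a high and a low set that lie closer together in replicate 2.

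Summed over its entries, U3 had the highest level of the detected snoRNAs. U3, a C/D box RNA, is required for the early cleavages that release the small-subunit ribosomal RNA. The annotation places 4 Rnu3b copies on chromosome 11 inside Tex14 and gives each a 215-base and a 216-base entry, so that 8 entries describe 4 loci. The 215-base sequences of the 4 copies were 100% identical, and a 216-base entry carries 1 more base. Each 215-base entry had 843 expected counts in replicate 1 and 643 in replicate 2, and each 216-base entry had 244 and 449. In TPM this was 238 and 172 for each 215-base entry and 68.3 and 119 for each 216-base entry. The longer entries were higher in replicate 2 and the shorter ones in replicate 1.

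The split of U3 reads between these entries was not settled by the data. The deposited posterior SD of the count, which scores how certain the assignment of reads was, ranged over the 8 entries from 156 to 651 in replicate 1 and from 272 to 499 in replicate 2. For Rnu3b1 and Rnu3b3 the 216-base entry had a posterior SD of 261 and 352 in replicate 1, above its count of 244. The sum over the 8 entries, for which no posterior SD was given, differed less between the libraries than each entry did. It was 4350.0 and 4369.0 counts, or 1226 and 1164 TPM (1195 ± 43.7, SD, n = 2), and made up 24.3% and 23.0% of the TPM of all detected entries. The ratio of the summed counts, replicate 2 over replicate 1, was 0.958 with a 95% exact counting interval of 0.918 to 0.999. Tex14 itself had 0.0900 TPM in replicate 1 and 0 in replicate 2. Rnu3a, a U3 gene on chromosome 10 with 85.8% identity to Rnu3b1, had 67.5 and 65.8 TPM on its 213-base entry. Its 214-base entry was listed at 0 in both libraries. Both Rnu3a entries had a posterior SD of 61.7 counts in replicate 1 and 58.5 in replicate 2, so this split was not settled either.

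**Figure D3:**
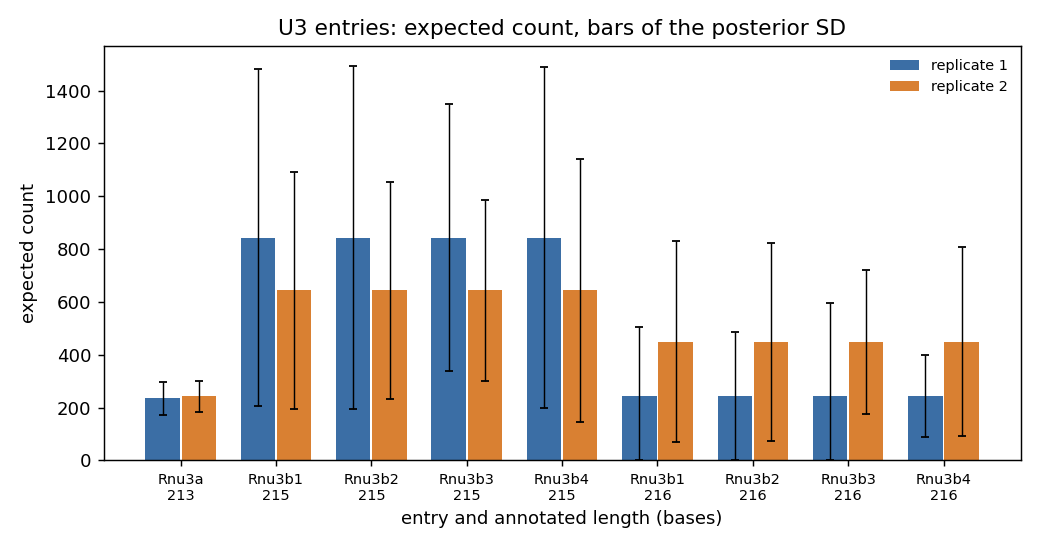
Expected counts of the 9 detected U3 entries (vertical axis), by symbol and annotated length in bases, for replicate 1 (blue) and replicate 2 (orange). Error bars are the deposited posterior SD, stopped at 0; they overlap between the 215-base and 216-base entries of the Rnu3b copies in both libraries.

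Other RNAs of ribosomal RNA maturation were also detected. Of 20 annotated entries on a list of 16 symbols, 14 were detected, 4 were under 100 bases (Snord14a, Snord14c, Snord14d and Snord14e), and Snord13 and the second Rnu3a entry had 0 counts. Among them were the U17 RNAs, H/ACA box RNAs that act in small-subunit ribosomal RNA processing. Snora73b had 242 TPM in replicate 1 and 217 in replicate 2, and Snora73a had 184 and 164. Both were slightly lower in replicate 2, by log2 ratios of -0.15 and -0.16. The copies are 96.6% identical over 205 bases, yet their posterior SDs were only 7.19 and 7.25 counts in replicate 1, against 784 and 597 counts. Their sum was 404 ± 32.2 TPM (SD, n = 2). Their host Snhg3, a noncoding snoRNA host gene, had 5.86 and 6.16 TPM, so Snora73b stood 38.2-fold above it.

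Gm26448, in an intron of the ribosomal protein gene Rpsa, was the entry with a provisional symbol most like U17. It had 89.1% identity to Snora73b over 202 aligned bases, and 147 TPM in replicate 1 and 118 TPM in replicate 2. Its posterior SD was 0 in both libraries. Snord22, the U22 RNA, which acts in small-subunit ribosomal RNA processing in Xenopus, had 90.7 and 106 TPM. Snord118, the U8 RNA of large-subunit processing, had only 12.7 and 12.9 TPM, from 14 and 15 counts. It was the lowest of the 5 Snord entries in both libraries.

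The remaining Snord entries were Snord15a, Snord15b and Snord17. Snord15b, whose human counterpart guides methylation of large-subunit ribosomal RNA, had 134 TPM in replicate 1 and 111 TPM in replicate 2. Snord15a, its neighbour in another intron of the ribosomal protein gene Rps3, had 76.2 and 74.0 TPM. Snord15b was the higher of the pair in each library, by 1.76-fold and 1.5-fold, although both come from the same host. All of Snord15b was also covered by annotated exon sequence of Rps3, while Snord15a lay wholly in an intron. Snord17, in an intron of Snx5, had 91.9 and 71.4 TPM, and its 95% counting interval of the ratio (0.673 to 0.909) lay below 1.

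The Snora entries, H/ACA box RNAs, were dominated by a few high ones. Snora73a, Snora73b, Snora74a and Snora23 held 81.5% of the summed Snora TPM in replicate 1 and 82.1% in replicate 2. Snora74a, of the U19 family, had 270 and 357 TPM. Its host, the noncoding AC121821.1, had 2.33 and 2.99 TPM. Snora23, in an intron of the importin gene Ipo7, had 106 and 81.0 TPM. Lower entries included Snora44 at 43.2 and 49.9 TPM in Snhg12, Snora81 at 16.3 and 14.9 TPM in Eif4a2, and Snora61 at 15.0 and 10.2 TPM in Snhg12. Of the 24 Snora entries, 14 in replicate 1 and 13 in replicate 2 were under 10 TPM, and 13 did not reach a mean of 10 counts.

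Scarna10 was the only entry with a Scarna symbol detected, and the single entry with the most reads. Its human counterpart, U85, carries both kinds of box and modifies the U5 spliceosomal RNA. Scarna10 had 2084 counts in replicate 1 and 2788 in replicate 2, or 302 and 383 TPM (342 ± 57.0, SD, n = 2). It was higher in replicate 2, with a ratio of 1.28 (95% counting interval 1.20 to 1.35). Its host Ncapd2, a condensin subunit gene, had 3.51 and 5.38 TPM. At 325 bases Scarna10 was the longest detected snoRNA entry, with an effective length of 226 bases, against 45 for Gm22988. Gm22988 therefore led in TPM although it had 623 and 719 counts.

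The 40 Gm entries, whose symbols carry no named function, held 40.4% of the snoRNA TPM in replicate 1 and 40.3% in replicate 2. Their median TPM was 17.9 and 18.1. All 40 lay inside a gene on the same strand. Gm22988 was the highest single entry, with 453 and 496 TPM, and Gm26447 followed with 344 and 402 TPM. Their hosts encode paralogous forms of the translation initiation helicase eIF4A, Eif4a1 and Eif4a2. Both entries were wholly covered by annotated exons of some transcript of the host, and their posterior SDs were 0.810 to 1.11 counts. Gm25291, in an intron of the coat protein gene Sec24a, had 132 and 108 TPM. Gm22486 in Ptcd3 had 118 and 106.9 TPM.

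Most Gm entries carried the H/ACA letters close to their 3' end. ACA stood within the last 10 bases of 35 of 40 Gm entries, of 22 of 24 Snora entries and of 0 of 5 Snord entries; the share was 63.2% over the 1049 annotated snoRNA genes of at least 100 bases. TGATGA followed by CTGA, on the transcript strand only, stood in 4 of 40 Gm, 0 of 24 Snora, 4 of 5 Snord and 8 of 8 Rnu3b entries, and in 4.00% of those annotated genes. Requiring ANANNA anywhere in the same strand as well changed none of the counts of detected entries. Only 6 of the 40 Gm entries matched a named mouse snoRNA by BLAST. Besides Gm26448 these were Gm22422 and Gm22362 with 82.2% and 79.1% identity to Snora70, Gm24233 and Gm22786 with 90.8% and 88.3% identity to Snora26, and Gm23346 with 98.5% identity to Snora5c. Gm22422 had 94.6 and 77.5 TPM, and Snora70 itself 6.74 and 1.96 TPM. Letters are a description and do not show that an RNA is bound or active.

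Most detected entries sat inside another gene. A gene on the same strand contained 74 of 80 detected entries (92.5%), and 21.7% of the 969 other snoRNA genes of at least 100 bases. The exceptions were Rnu3a, Snord118, Snora17, Snora57 and both Snora43 entries. Apart from the Rnu3b entries, 66 entries lay in 56 host genes: 37 wholly in introns, 18 wholly covered by annotated exons and 11 partly covered. The median of mean TPM was 17.2 for the wholly covered entries, 18.9 for the partly covered ones and 13.1 for the intronic ones. The median mean TPM of the hosts was 32.5 for these entries and 2.77 for the 210 other snoRNA genes with a host. Of the entries with a host, ribosomal protein genes held 18.2% of the 66 detected ones and 5.24% of the 210 others, Eif genes 10.6% and 2.38%, and Snhg genes 12.1% and 3.33%.

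Among the detected entries, the level of a host did not order the level of its snoRNA. Across the 66 entries the Spearman rho of mean TPM was 0.0141, a description across genes within 2 libraries. These entries were chosen by their own TPM, so the rho leaves out the 210 other snoRNA genes with a host. Hosts of those had a lower median of mean TPM, at 2.77 against 32.5. In 30 of 66 the snoRNA was above its host. Snora74a stood 118-fold above AC121821.1, Scarna10 77-fold above Ncapd2 and Gm22422 24.6-fold above Trmt10c. At the other end, Snora31 averaged 3.64 TPM in Tpt1, the tumour protein gene, which averaged 1251 TPM, and Snora64 averaged 2.63 TPM in the ribosomal protein gene Rps2, which averaged 231 TPM. Snora31 rested on 5 counts in replicate 1 and 2 in replicate 2, and stood 233-fold and 635-fold below Tpt1 in these libraries. Snora64 rested on 1.90 and 3.92 counts and stood 131-fold and 65.8-fold below Rps2. Host TPM came from alignments to annotated transcripts of the host. Whether reads on an intronic entry came from the snoRNA or from unspliced host RNA was not tested. Nor was it tested whether reads on exon-covered entries, such as Gm22988, Gm26447 and Snora74a, came from host transcripts. Stability and processing of either RNA were not measured.

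**Figure D4:**
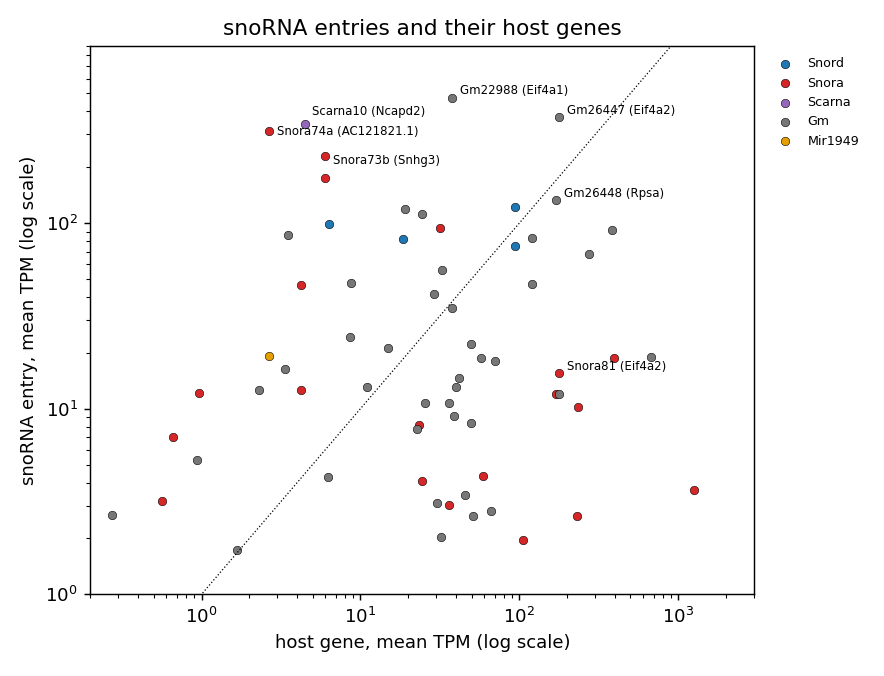
Mean TPM of 66 detected entries (vertical axis) against mean TPM of the host gene on the same strand (horizontal axis), both on log scales, coloured by symbol group, with the Rnu3b entries left out. The dotted line marks equal TPM; 30 entries lie above it, and no trend is visible (Spearman rho 0.0141).

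Entries from 1 host differed widely in some cases. Apart from Tex14, 9 host genes held more than 1 detected entry, 19 entries in all. In Eif4a2, Gm26447 averaged 373 TPM, Snora81 15.6 TPM and Gm24616 12.0 TPM, so the extremes were 31.2-fold apart. In Eif4a1, Gm22988 with H/ACA letters averaged 475 TPM and Gm25835 with C/D letters averaged 34.9 TPM, 13.6-fold apart. These gaps held in each library, at 28.0-fold and 34.6-fold in Eif4a2 and at 15.2-fold and 12.4-fold in Eif4a1. The other hosts with several entries were closer, except AC121821.1. Snora74a was 16.4-fold above Mir1949 there, Snora44 was 3.69-fold above Snora61 in Snhg12, and Gm25788 was 1.78-fold above Gm22154 in Pabpc4, a pair with 96.9% identical bases.

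The spread between the libraries was assessed on 57 of the 80 entries, those with a mean of at least 10 counts. Of these, 3 (5.26%) were over 2-fold apart, while 7.72% of the 15007 genes passing the same filter were. By direction, 1 entry was over 2-fold higher in replicate 2, as were 4.63% of all genes, and 2 were over 2-fold higher in replicate 1, as were 3.09% of all genes. Shares this near the background are no result about snoRNAs. Snora21 had 6 counts in replicate 1 and 23 in replicate 2, which gave a ratio of 3.66 (95% counting interval 1.45 to 11). Its host, the ribosomal protein gene Rpl23, had 173 and 169 TPM. Gm22748 in Odc1 had 21 and 9 counts, a ratio of 0.409 (0.165 to 0.931), and Gm23245 in Cct6a had 16 and 8 counts, a ratio of 0.477 (0.177 to 1.18). Gm24233, Gm26397 and Snora61 came next among those lower in replicate 2, with log2 ratios of -0.73, -0.54 and -0.53, and the intervals of their ratios included 1.

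The median log2 ratio was -0.03 over the 57 entries, -0.03 over 5 Snord and -0.15 over 11 Snora entries, against -0.0020 over all genes. The median absolute log2 ratio was 0.30 for the entries and 0.21 for all genes. It depended on depth. Among genes of 10 to 50 counts it was 0.29 for 26 entries and 0.47 for all genes, and among genes of 200 to 3000 counts it was 0.38 for 19 entries and 0.15 for all genes. Without the 8 Rnu3b entries, the 11 others in that highest range had 0.28. The counting interval excluded a ratio of 1 for 17 entries, 8 of them Rnu3b entries. The other 9 were Snora21, Scarna10, Snora74a, Gm26447 and Gm24119, all higher in replicate 2, and Gm22748, Snora23, Snord17 and Gm26448, all lower in replicate 2. Intervals cover counting error only, because reads are not independent molecules. The share of all genes whose interval excluded 1 is not given here, so the 17 entries are no result about snoRNAs.

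**Figure D5:**
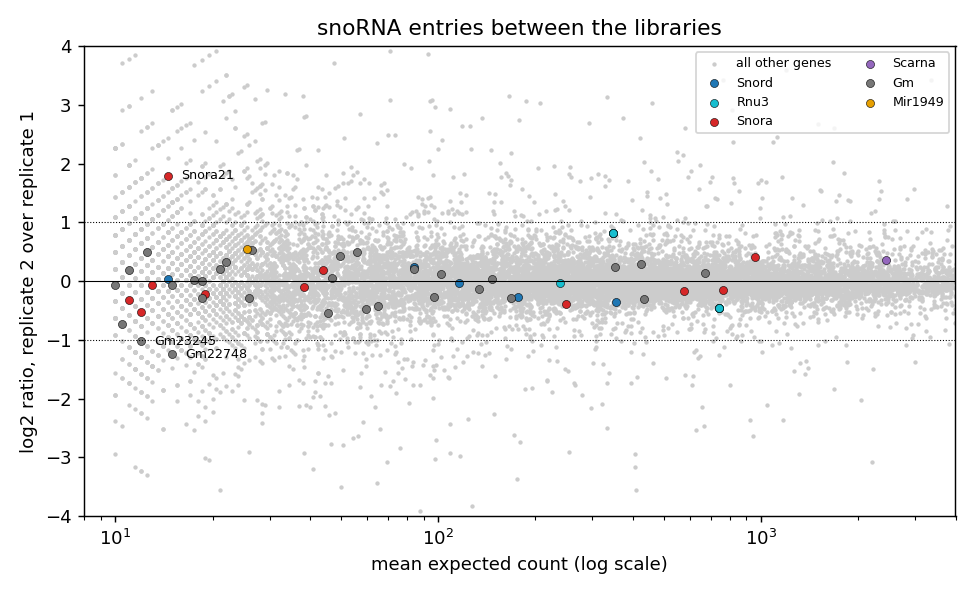
Log2 ratio of replicate 2 over replicate 1 (vertical axis) against mean expected count (log scale), for 57 detected snoRNA entries (coloured by symbol group) and other genes (grey) with a mean of at least 10 counts. Each of the upper and lower Rnu3 points away from 0 is 4 overlying Rnu3b entries; Snora21, Gm22748 and Gm23245 lie beyond the dotted lines at 2-fold, and grey points beyond the axes are not drawn.

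The libraries also differed in the levels of some cell type markers. All 6 markers of skeletal muscle fibres were detected in each, with a summed TPM of 113897 in replicate 1 and 82057 in replicate 2. Summed TPM in replicate 1 and replicate 2 was 1.92 and 1561 for the 4 slow fibre markers, 81.4 and 6.41 for the 5 fat cell markers, 1691 and 296 for the 3 red blood cell markers, and 85.8 and 20.5 for the 2 nerve markers. None of these 14 markers was at 0 in either library. The summed TPM of other marker sets lay closer together, at 376 and 380 for 2 fibroblast markers, 27.8 and 29.9 for 2 endothelial markers, 12.8 and 13.6 for 2 macrophage markers, and 42.5 and 54.8 for 4 lymphocyte markers, of which 1, Rag1, was at 0 in replicate 1. The lymphocyte sums rested mostly on 1 marker in each library, the highest being at 42.3 TPM in replicate 1 and 50.9 in replicate 2. The lowest lymphocyte marker was at 0 and 1.11 TPM, and 1 of the 4 was detected. The part of cell types in the snoRNA values was not tested. In bulk tissue fewer cells of a type and less RNA per cell cannot be told apart.

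The genes of the proteins that make up snoRNA particles were measured too, as RNA. All 4 genes of C/D core proteins were detected, with median TPM of 12.5 in replicate 1 and 11.6 in replicate 2. Fbl, the methyltransferase fibrillarin, had 8.24 and 8.99 TPM, and the scaffold proteins Nop56 and Nop58 had 14.1 and 12.7 TPM and 10.9 and 10.6 TPM. All 4 genes of H/ACA core proteins were detected, with medians of 11.4 and 10.6 TPM. Dkc1, the pseudouridine synthase dyskerin, had 12.8 and 11.4 TPM. Of 12 assembly and Cajal body factors 10 were detected; Shq1, a dyskerin chaperone, had 0.800 and 0.600 TPM, and Wrap53, which binds scaRNAs, had 0.930 and 1.03 TPM. None of these 20 protein genes was over 2-fold apart between the libraries. Of 28 listed host genes 25 were detected, and none of the 26 that passed the count filter was over 2-fold apart. Over all 15007 genes passing that filter the share was 7.72%. Finding none in sets this small is no result about these genes.

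Longer noncoding RNAs gave a scale for these values. Rn7sk, the regulator of transcription elongation, had 13775 and 14166 TPM, and Rpph1, the RNA of RNase P, had 3324 and 3054 TPM. Rmrp, the RNA of RNase MRP, had 2 entries, with 1805 and 1767 TPM on the higher one. Terc, the telomerase RNA, which carries an H/ACA domain, had 1.52 and 0.860 TPM from 15 and 9 counts.

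The second kind of deposited table, quantified directly from the reads, did not hold these RNAs. Over all 1507 snoRNA genes it gave 1 count in replicate 1, on Scarna10, and 0 counts in replicate 2, where the alignment-based gene table gave 13248 and 14294 to the detected entries. This was not particular to snoRNAs. Among genes of a single transcript with a mean alignment-based count of at least 100, the reads-based count was under 1% of it in 38 of 38 genes of 100 to 199 bases and in 31 of 31 of 200 to 299 bases. The number was 25 of 37 at 300 to 399 bases, 27 of 74 at 400 to 599, 13 of 123 at 600 to 999, and 5 of 759 at 1000 bases or more.

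The detected set ended in single reads. Just inside the threshold stood Snora69 with 1 and 3 counts (1.02 and 2.91 TPM), Gm24888 with 1 and 3 counts (1.06 and 3.00 TPM) and Gm23297 with 1 and 4 counts (1.17 and 4.43 TPM). Just outside stood Gm25053 (0.990 and 1.88 TPM), Gm25617 (0.990 and 0.940 TPM) and Gm26165 (1.68 and 0.800 TPM), each with 1 or 2 counts. In all, 9 snoRNA genes reached 1 TPM only in replicate 1 and 13 only in replicate 2, with Gm26165 and Gm25053 among them. Of the 80 entries, 53 had at least 10 counts in both libraries and 24 had at least 100. Read assignment among annotated transcripts, which is all that the posterior SD scores, was certain for most entries. A posterior SD of 0 in both libraries was given for 42 entries, and 67 had one of at most 0.25 times the count. The 13 above that were the 8 Rnu3b entries, Rnu3a, Gm23925, Snora70 and both Snora43 entries.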

How the data were processed

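Total RNA of 2 gastrocnemius libraries was analysed. Per the labels and deposited descriptions, the build was mm10 with GENCODE M21 annotation, and the spike-in profile was one for stranded, ribosomal RNA reduced libraries. The authors deposited a gene table derived from transcriptome alignments, with expected counts (not normalised), TPM (scaled over all rows, spike-ins included) and the posterior SD of each count, taken as a score of read assignment, per the file headers. They also deposited estimated counts and TPM derived directly from the reads. The sources used here do not name the read length, the quantification programs or their versions. Reads shared by near-identical copies were divided by estimation, and the effect of castaneus alleles on alignment was not tested.

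The 26248 tRNA rows (3 counts in replicate 1 and 0 in replicate 2) stayed out. Rounded expected counts were scaled by TMM (edgeR 4.0.16, R 4.3.3) and compared as log2 CPM ratios, replicate 2 over replicate 1, with a prior count of 0.5, where the mean count was 10 or more. Ratio intervals are exact (Clopper-Pearson, 95%) and cover counting error only. DESeq2 1.42.0 size factors were an alternative. Hosts, coordinates and sequences came from GENCODE M21. Matches were found with BLAST 2.17.0 (word size 7, e-value limit 1e-05) and identities with Biopython 1.88. Python 3.11.15 was used with pandas 2.3.3, numpy 2.4.6, matplotlib 3.10.9 and scipy 1.17.1. The ratio step was tested on simulated data. There was 1 group, so conditions could not be compared.

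The members, gene lists and markers were chosen with earlier results of these data known. Genes named were the 8 highest of each symbol group, all Scarna entries, the 5 largest ratios in each direction, entries at the threshold, entries with a posterior SD above their count, list members and their hosts, and the entries with the highest and lowest reads-based values. Other entries, such as Gm25835, Gm24616, Gm22422, Gm22486, Snora31, Snora64 and those of the sequence comparisons, were chosen after their values were seen. The values of 1 entry under that rule are not reported here. Alternatives covered thresholds, filters, scaling, prior count, the table made directly from reads, and leaving out each library.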

Additional observations from a re-analysis of the deposited data

How the results depend on the processing

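No paired analysis was possible because the series has 1 group. Of 67 alternative values, 44 stayed within the spread between libraries or, for counts, within 1.5 times. Some of these could not have moved. A level from 1 library always lies within the SD of the 2, and the filters on posterior SD and counts removed no Snord entry. The 44 is therefore no measure of robustness. The number of detected entries was 80, and 84 or 60 at a threshold of 0.5 or 5 TPM; it was 53 with at least 10 counts in both libraries, 0 in the reads-based table, and 89 to 93 with a library left out. The reads-based table also gave medians of 0 TPM for all, Snord and Snora entries, a sum of 0.283 TPM and a share of counts of 1.35e-06%; it held no entry with 10 counts, so no ratio came from it.

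Requiring a posterior SD of at most 0.25 times the count gave medians of 16.4 TPM for all entries (18.6 before) and 9.84 TPM for Snora (6.89 before), a sum of 3775 TPM and a share of 0.0233%. Requiring 10 counts in both libraries gave medians of 66.7 TPM for all and 32.7 TPM for Snora, a sum of 4914 TPM and a share of 0.0348%; by construction this keeps the higher entries. With the Rnu3b entries summed to 1 value, an alternative chosen after seeing the data, the median was 15.2 TPM. Leaving out a library gave 17.9 to 19.2 TPM over all entries.

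Scaling by spike-ins shifted all log2 ratios by 0.39. It gave medians of 0.36 for all entries and Snord and 0.25 for Snora, and 5 entries over 2-fold apart. The number over 2-fold was 9 with no filter on counts and 0 at a mean of at least 100 counts, where the Snord median was -0.26. The cause of these changes was not tested. Entries of few reads limit most: 23 of 80 had a mean under 10 counts.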
